A study of Danio rerio with 6 samples.

Results

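The genes described here control how pyruvate enters mitochondria and how fast it is turned into acetyl-CoA in the regenerating zebrafish caudal fin. They are 10 of the 19822 genes of the table, taken by symbol: mpc1 for the mitochondrial pyruvate carrier, pdha1a, pdhb and dlat for the catalytic core of the pyruvate dehydrogenase complex, pdk1, pdk2a, pdk2b, pdk3b and pdk4 for its inhibitory kinases, and pdp1 for an activating phosphatase. Poly(A) RNA was sequenced from fins given Galloflavin, an inhibitor of lactate dehydrogenase, dosed at 0.12 mg for each g of body weight and dissolved in DMSO, or given only DMSO. All fish were wild-type AB adults aged 3 to 12 months, of both sexes in equal number, that received the agent by intraperitoneal injection and regenerated at 33 °C. Fins were taken 24 h after amputation together with 1 ray segment of the stump, so each library mixes new tissue with old. There were 3 libraries per group, 10 fins being pooled for every library, and the labels name the batches B1, B2 and B3, with 1 library of each group in a batch. The p-values measure the spread between these pools.

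Pyruvate is the end product of glycolysis. In the cytosol lactate dehydrogenase can reduce it to lactate, while the mitochondrial carrier, made of Mpc1 and Mpc2 proteins, brings it across the inner membrane to the pyruvate dehydrogenase complex. Kinases of the Pdk family phosphorylate the alpha subunit of that complex and switch it off, and phosphatases switch it on again. In mammals the kinase genes differ in what induces them: PDK4 responds to fasting, fatty acids and glucocorticoids, and PDK1 and PDK3 to low oxygen. Regenerating fins are known to rely on glycolysis early after amputation. The data hold transcript levels only, with no measure of lactate, of phosphorylation or of enzyme activity.

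The libraries held 18064422 to 27903337 reads in genes with Galloflavin and 17712157 to 29596335 with DMSO, the lowest depth of each group in B3. Values are normalised counts as deposited, in which 1 read was worth 0.0339 to 0.0543 and 3 reads, the limit that a count of 0 allows, 0.102 to 0.163, for counting error only. They are not per length, so a level is compared between libraries and not between genes. Genes of posterior fin position were present in every library (hoxa13a at 36.3 to 43.4 with Galloflavin and 40.0 to 44.8 with DMSO), as was the blastema gene fgf20a (24.7 to 44.6 and 27.7 to 63.7). Skeletal muscle, a tissue rich in pyruvate dehydrogenase kinases, was represented by 4 matched genes of 19. The creatine kinase gene ckma stood at 0.386 to 1.74 with Galloflavin and 0.169 to 0.530 with DMSO, and 2 others were also below 2. The troponin gene tnnt3b was at 5.48 to 11.4 with Galloflavin and 5.51 to 7.65 with DMSO.

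Transcripts of the carrier and of the core of the complex varied little over the 6 libraries, and none differed between the groups beyond the spread of replicates. The gene mpc1 (ENSDARG00000093448), a subunit of the carrier, was at 31.7, 33.1 and 33.7 in Galloflavin B1, B2 and B3, against 33.2, 32.7 and 31.5 in the DMSO libraries of the same batches. The groups overlapped fully, and the coefficient of variation over the 6 libraries, 2.64%, was below the 3.63% that counting error alone gives at 595 to 966 reads. Its log2 fold change, taken as Galloflavin over DMSO after adding 1 to each value, was 0.02 ± 0.09 (SE), with a 95% interval of -0.18 to 0.22 (limma adjusted p = 0.987).

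The alpha subunit gene pdha1a (ENSDARG00000012387), whose protein carries the phosphorylation sites of the kinases, had normalised counts of 166.7, 167.2 and 155.8 with Galloflavin, against 163.5, 166.7 and 154.8 with DMSO. The Galloflavin library was 1.02, 1.003 and 1.01 times its DMSO partner in B1, B2 and B3. The log2 fold change was 0.01 ± 0.08 with an interval of -0.17 to 0.20 (limma adjusted p = 0.987). The beta subunit gene pdhb (ENSDARG00000021346) was at 124.0, 141.3 and 137.0 with Galloflavin, against 122.6, 123.4 and 134.0 with DMSO. Its widest gap was in B2, at 1.14 times the DMSO library, and the log2 fold change was 0.08 ± 0.09 (-0.13 to 0.29; limma adjusted p = 0.884). The acetyltransferase gene dlat (ENSDARG00000015918), for the core on which the complex assembles, was at 131.4, 138.3 and 147.6 with Galloflavin, against 132.4, 131.7 and 136.8 with DMSO. The change was 0.06 ± 0.08 (-0.14 to 0.25; limma adjusted p = 0.918). The coefficients of variation of these 3 genes were 3.50%, 6.20% and 4.54%, where the median over the 15806 genes tested was 15.1%. Smaller spreads than those of mpc1, pdha1a, dlat and pdhb were found in 0.361%, 1.02%, 2.73% and 8.03% of the genes tested, a description that also reflects how deeply each gene was covered.

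**Figure D1:**
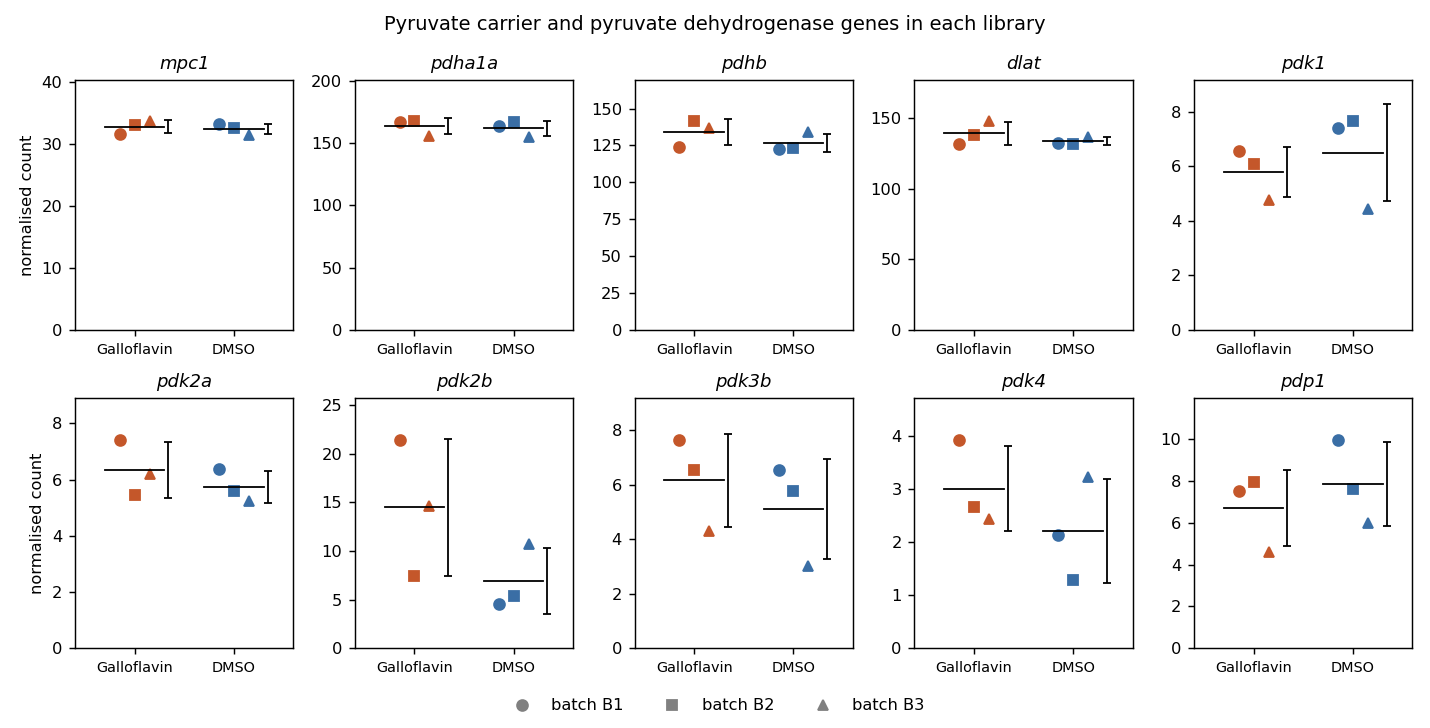
Normalised count (vertical axis, from 0) of each of the 10 genes in the Galloflavin and DMSO libraries, with the batch of each library shown by its marker; lines are group means and bars the SD of 3 libraries. The carrier gene mpc1 lies between 31.5 and 33.7 in all 6 libraries, and pdk2b between 4.54 and 21.4.

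The regulators varied more. The gene with the widest spread was pdk2b (ENSDARG00000059054), which encodes a kinase of the isoform that in mammals is the most widely expressed. Its normalised counts were 21.4, 7.40 and 14.7 in Galloflavin B1, B2 and B3, against 4.54, 5.42 and 10.8 in the DMSO libraries, from 117 to 555 reads. Galloflavin B1 was the highest library and DMSO B1 the lowest, and the groups overlapped because DMSO B3 lay above Galloflavin B2. The Galloflavin library was higher in 3 of 3 batches, by 4.71 times in B1, 1.37 times in B2 and 1.36 times in B3. Group means were 14.5 ± 7.005 with Galloflavin and 6.91 ± 3.37 with DMSO (SD, n = 3 each). The log2 fold change of 0.94 ± 0.41 (-0.02 to 1.90) did not pass limma (adjusted p = 0.690, unadjusted p = 0.0533), nor did it with batch as a block (adjusted p = 0.444, unadjusted p = 0.0286). Without B1 the value was 0.40 (limma adjusted p = 0.964). In bulk tissue fewer cells of a type and less RNA per cell cannot be told apart, here and in what follows.

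The paralog pdk2a (ENSDARG00000020876) did not show this spread. It was at 7.41, 5.45 and 6.19 with Galloflavin, against 6.37, 5.58 and 5.25 with DMSO, and the log2 fold change was 0.12 ± 0.15 (-0.23 to 0.47; limma adjusted p = 0.896). In Galloflavin B1, where pdk2b stood at 4.71 times its DMSO partner, pdk2a stood at 1.16 times.

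The gene pdk4 (ENSDARG00000054848), the kinase of the fasting response, was the least covered, with 38 to 102 reads. It was at 3.94, 2.66 and 2.44 with Galloflavin, against 2.14, 1.29 and 3.23 with DMSO. It was higher with Galloflavin in B1 and B2, at 1.84 and 2.07 times, and lower in B3, at 0.755 times. The log2 fold change was 0.35 ± 0.26 (-0.26 to 0.95; limma adjusted p = 0.809), and without B3 it was 0.67 (limma adjusted p = 0.404). Counting error alone gives pdk4 a coefficient of variation of 12.9%, and the observed one was 34.8%.

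The gene pdk3b (ENSDARG00000099791) was at 7.64, 6.54 and 4.29 with Galloflavin, against 6.53, 5.75 and 3.02 with DMSO. The Galloflavin library was higher in 3 of 3 batches, but each group spanned more than the difference between them (0.25 ± 0.28; -0.41 to 0.92; limma adjusted p = 0.886). The gene pdk1 (ENSDARG00000013128) was at 6.56, 6.07 and 4.78 with Galloflavin, against 7.42, 7.65 and 4.45 with DMSO, a log2 fold change of -0.12 ± 0.21 (-0.62 to 0.38; limma adjusted p = 0.935) that lay between -0.34 without DMSO B3 and -0.0036 without DMSO B2. The phosphatase gene pdp1 (ENSDARG00000076308) was at 7.48, 7.95 and 4.61 with Galloflavin, against 9.94, 7.58 and 5.99 with DMSO. It was lower in B1 and B3, at 0.753 and 0.770 times, and 1.05 times in B2, with a log2 fold change of -0.21 ± 0.24 (-0.76 to 0.35; limma adjusted p = 0.887).

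Summed over the 5 kinase genes, normalised counts were 47.0, 28.1 and 32.3 in Galloflavin B1, B2 and B3, against 27.0, 25.7 and 26.7 with DMSO. The sums did not overlap, but without pdk2b they were 25.5, 20.7 and 17.7 with Galloflavin and 22.5, 20.3 and 16.0 with DMSO, and overlapped. The core genes pdha1a, pdhb and dlat together summed to 422.1, 446.8 and 440.4, against 418.5, 421.8 and 425.7.

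**Figure D2:**
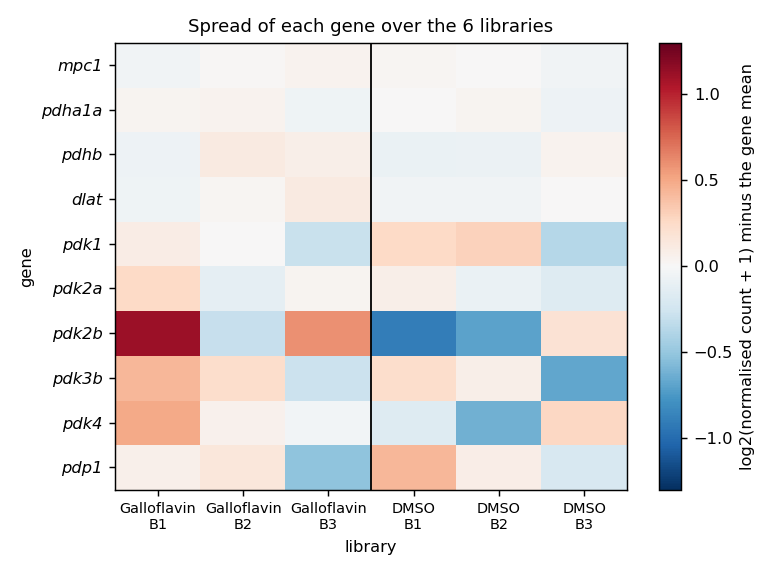
Each row is one of the 10 genes, each column a library (Galloflavin left, DMSO right), and the colour is log2(normalised count + 1) minus the mean of that gene over the 6 libraries. The top 4 rows, carrier and core, stay within 0.12 of their means, and pdk2b runs between -0.90 in DMSO B1 and 1.11 in Galloflavin B1.

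Over the whole group, 8 of the 10 genes had a log2 fold change above 0 and 2 below, with a median of 0.07, where the median of all genes tested was -0.004 and 49.1% lay above 0. By limma 0 of the 10 passed at an adjusted p of 0.05, as did 0% of the 15806 genes tested, with 0 of the 10 and 7.21% of all genes at an unadjusted p under 0.05. The edgeR and DESeq2 tests on whole reads recovered from the values also called 0 of the 10, each with pdk2b at an unadjusted p under 0.05 (0.0478 and 0.0157), while DESeq2 called 0.525% of all genes. None of the 10 genes had groups that did not overlap, against 13.4% of all genes. All batch pairs had the same sign for pdk2b, pdk3b, pdha1a and pdhb, each higher with Galloflavin, which is 4 of 10 where 17% of all genes were higher in 3 of 3 batches. The largest differences among these pairs came from pdk2b, and those of pdha1a were 0.03 or less on the log2 scale.

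**Figure D3:**
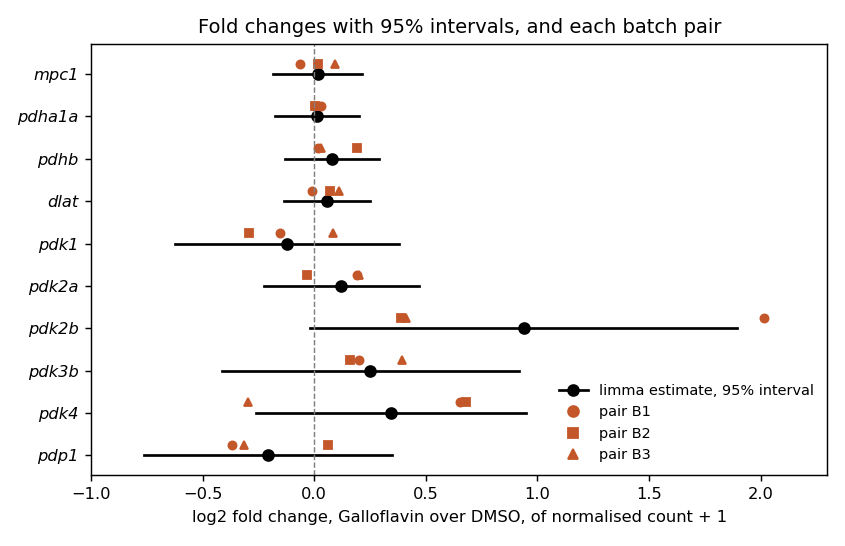
Log2 fold change, Galloflavin over DMSO, of normalised count + 1 for each gene (black, limma estimate with its 95% interval) and the difference within each batch pair (orange markers). All 10 intervals include 0, those of the carrier and core lie within -0.18 and 0.29, and the pdk2b pair of B1 stands at 2.02.

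The libraries of batch B3 were low in 3 of the 6 regulators in both groups. For pdk1 the B3 libraries held 4.78 with Galloflavin and 4.45 with DMSO, where the other 4 libraries lay between 6.07 and 7.65. For pdk3b they held 4.29 and 3.02, where the others lay between 5.75 and 7.64, and for pdp1 4.61 and 5.99, where the others lay between 7.48 and 9.94. The subunit gene pdha1a was also lowest in both B3 libraries (155.8 and 154.8 against 163.5 to 167.2), so that 4 of 10 genes had this order, against 16.2% of all genes tested. A limma F test of the 3 batches, with the group in the fit, gave unadjusted p-values of 0.0453 for pdk1, 0.00647 for pdk3b and 0.0294 for pdp1. None of the 10 passed it at an adjusted p of 0.05 (0.383, 0.223 and 0.344 for these 3 genes), as 0.0316% of all genes did, and 3 of 10 had an unadjusted p under 0.05, against 12.6% of all genes. Between batches mpc1 differed least, with batch means of 32.5, 32.9 and 32.6 (adjusted p = 0.995).

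Single cell type markers also set the B3 libraries apart. The superficial and intermediate epidermis sum without krt4 and the macrophage sum without cd74a and cd74b did not. The osteoblast sum without col10a1a and spp1 did not either, while other sums did. The epidermal keratin gene krt4 was at 5807 with Galloflavin and 5080 with DMSO in B3, where the other 4 libraries lay between 9087 and 13699. Without krt4 the superficial and intermediate epidermis list, of 8 genes, summed to 1438, 1337 and 1372 in Galloflavin B1, B2 and B3. With DMSO it summed to 1205, 1129 and 1216, so that this sum was not low in B3. The sum still held the keratin gene krt17, which was highest in B3, at 243.0 and 249.2. Its gene agr1 was lowest in B3, at 68.8 and 61.9. A sum without both keratin genes was not taken. Of the 10 macrophage genes, the antigen presentation genes cd74a and cd74b were highest in B3, cd74a at 589.5 and 487.0, where the others lay between 252.1 and 361.6. The other 8 macrophage genes summed to 302.5 to 305.3 with Galloflavin and 307.7 to 318.5 with DMSO over all batches. Without cd74a alone, the macrophage sum was still highest in B3, at 662.8 with Galloflavin and 636.6 with DMSO. The osteoblast sum without its most abundant gene, col10a1a, was also highest in B3, at 251.5 and 220.2. No gene of these lists was at 0 in all libraries. The part of the lower depth of B3 in its low kinase and phosphatase values was not tested.

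Of the 8 matched neutrophil markers of 9, only the metalloproteinase gene mmp9 had both its highest value in Galloflavin B1 and its lowest in DMSO B1, as pdk2b did. It was at 374.4, 178.0 and 281.7 in Galloflavin B1, B2 and B3, against 103.8, 151.4 and 332.2 with DMSO. The 8 markers summed to 749.8, 561.8 and 556.5 with Galloflavin, against 370.5, 411.8 and 619.1 with DMSO. Without mmp9 the sums were 375.4, 383.8 and 274.8, against 266.7, 260.4 and 286.9, with Galloflavin B2 highest and DMSO B2 lowest. Most of those sums came from nccrp1. Without both genes they were 79.1, 71.9 and 71.2, against 44.2, 44.6 and 105.1, with DMSO B3 highest and DMSO B1 lowest. The defining peroxidase gene mpx, at 13.2, 15.2 and 13.5, against 8.47, 10.6 and 26.6, was highest in DMSO B3. This list was set beside pdk2b after its values were seen, and none of its genes was at 0 in all libraries. Other cell type lists also held genes with both extremes, at 1 of 9 basal epidermis markers and 1 of 10 macrophage markers. So did further lists, among them 2 of 23 TCA cycle genes and 1 of 13 identifiers of glucocorticoid targets. The share over all genes was not taken. DMSO B1 was the lowest library for 9 of those 13 glucocorticoid identifiers, against 2 of the 8 neutrophil markers. Galloflavin B1 was the highest library for 4 of the 5 kinase genes. The part of mmp9-expressing cells in the pdk2b values was not tested. Among all named genes with a mean of at least 5, the pattern nearest to pdk2b was that of si:ch1073-67j19.1, with a root mean square difference of 0.17 between log2 values centred over the 6 libraries. It was at 35.5, 9.75 and 17.8 with Galloflavin, against 7.38, 8.16 and 12.8 with DMSO. Next came cdc42ep3, an effector of the GTPase Cdc42, at 0.18, and si:busm1-71b9.3 at 0.19. For pdk3b, next after pdk2b among the 10 by SD of log2(value + 1), though not by coefficient of variation, the nearest were the monoglyceride lipase gene mgll (0.08), the gap junction gene gja13.2 and lmcd1 (0.09 each).

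No gene of the rest of the pyruvate dehydrogenase system passed the test either. Of 16 listed genes 14 were matched and 13 tested, 0 of them called higher and 0 lower by limma, with 0 at an unadjusted p under 0.05 and a median log2 fold change of 0.04. The other carrier gene, mpc2b, was at 38.9, 37.5 and 35.3 with Galloflavin, against 41.8, 39.4 and 39.2 with DMSO. Its groups did not overlap, as in 6.47% of all genes in that direction, and the log2 fold change was -0.11 ± 0.09 (limma adjusted p = 0.823). The binding protein gene pdhx, which anchors the dihydrolipoamide dehydrogenase to the core, was at 55.4, 65.0 and 68.3, against 49.3, 49.9 and 60.3, higher in 3 of 3 batches (0.24 ± 0.12; limma adjusted p = 0.717). The lipoyl transfer gene lipt1 stood at -0.17 ± 0.15 (limma adjusted p = 0.837). The alternative alpha subunit gene pdha1b, also picked after its values were seen, was near the floor in every library, at 0.154 to 0.326 with Galloflavin and 0.159 to 0.350 with DMSO.

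Most of the hypoxia targets set Galloflavin B2 apart. In the B2 pair pdk1 was lower with Galloflavin, as were a few of the targets. Of the 22 matched hypoxia targets 19 were tested, with 17 above 0, 0 called by limma and medians of 0.09, 1.59 and 0.04 in the B1, B2 and B3 pairs. Galloflavin B2 was the highest library for 14 of the 19, and the median of the list, 0.58, was 0.11 without it. The oxygen sensor gene egln3, picked after its values were seen, was at 22.0, 109.3 and 3.96 with Galloflavin, against 24.3, 3.79 and 4.45 with DMSO. The lactate dehydrogenase subunit gene ldha was at 224.0, 728.4 and 74.9, against 176.9, 98.5 and 71.7. In that B2 pair pdk1 was at 6.07 with Galloflavin and 7.65 with DMSO, 0.794 times. Also lower there were the targets hk2, pfkfb4b and igfbp1a, with log2 differences of -0.20, -0.35 and -0.42. They were named after their values were seen, and the remaining tested targets were higher in that pair. Across batches, the tested hypoxia targets slc2a1b, eno1a, ca9, vegfaa, tpi1b, hk1, ndrg1a, ero1a and p4ha1b were lowest in both B3 libraries. So were pdk1 and ldha. That order was found in 16.2% of all genes tested. The other tested targets, such as bnip3, did not have it, and all targets named for this order were picked after their values were seen. The kinase gene pdk3a, which is outside the 10 and was picked here after its values were seen, was at 10.5, 13.1 and 4.29 with Galloflavin, against 8.82, 6.46 and 4.98 with DMSO, highest in Galloflavin B2. The glucose transporter gene slc2a1a was at 0.0386, 0.0784 and 0.488, against 0.0388, 0.0338 and 0.0530. That was below the floor in every library except Galloflavin B3, where the floor was 0.163. The listed hypoxia targets with the lowest unadjusted p were hif1al (0.65 ± 0.31), the glycolytic gene pgk1 (0.65 ± 0.38) and adma (0.58 ± 0.36; limma adjusted p = 0.692, 0.752 and 0.759).

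**Figure D4:**
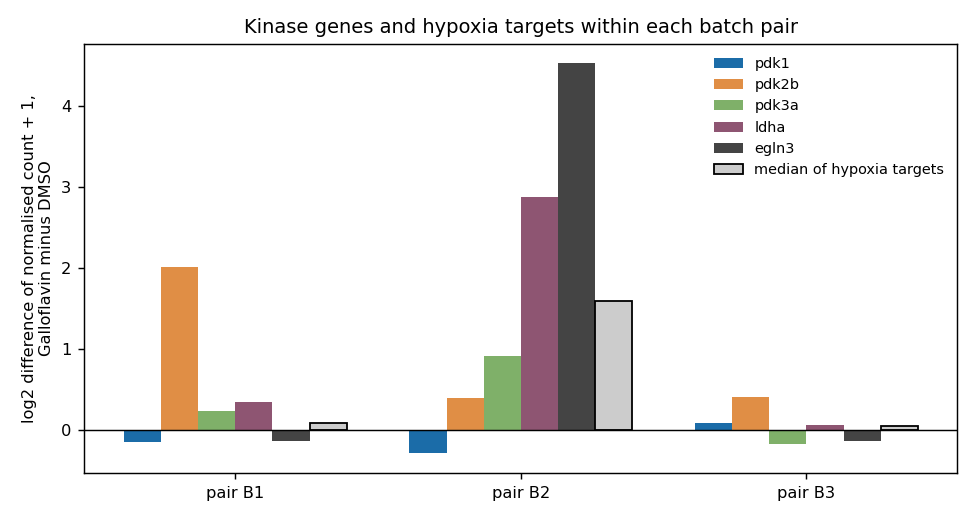
Difference of log2(normalised count + 1), Galloflavin minus DMSO, within each batch pair for the kinase genes pdk1, pdk2b and pdk3a, for ldha and egln3, and the median of 19 hypoxia targets (bars from 0). In B2 the hypoxia median is 1.59 while pdk1 is at -0.29, and the highest pdk2b bar is in B1, where the hypoxia median is 0.09.

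The glucocorticoid targets, listed because pdk4 is one in mammals, lay mostly above 0. The 12 genes, with 13 identifiers, summed to 1723 to 1862 with Galloflavin, against 884 to 1504 with DMSO. Without fkbp5 the sums were 944.9 to 1067, against 622.2 to 1021, which overlapped. Without cebpd they were 1394 to 1513, against 685 to 1069, which did not overlap. Without both genes they were 616.2 to 647.3, against 422.4 to 585.9, which did not overlap either. Of the 12 identifiers tested 10 lay above 0 with a median of 0.25, 0 were called by limma and 4 had an unadjusted p under 0.05, all higher, where 4.18% of all genes did so. The receptor chaperone gene fkbp5 was at 777.8, 795.8 and 883.9 with Galloflavin, against 262.3, 503.4 and 482.9 with DMSO (1.03 ± 0.24; limma adjusted p = 0.602). The metallothionein gene mt2 stood at 0.84 ± 0.23 and the transcription factor gene klf9 at 0.83 ± 0.29 (limma adjusted p = 0.602 and 0.644). The groups did not overlap for 4 of the 12, all higher, as in 6.97% of all genes. In the B3 pair the list had a median log2 difference of 0.12, with mt2, fkbp5 and klf9 higher with Galloflavin, at 1.38, 0.87 and 0.85. The member pdk4, which is not in this list, was lower there. Lower in that pair within the list were zbtb16a, dusp1, cebpd and nr3c1, with log2 differences of -0.52, -0.47, -0.39 and -0.09. They were picked after their values were seen, and the remaining identifiers tested were higher. The median of the list was 0.002 without DMSO B1, which held its lowest sum.

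Genes listed for Ppar and FoxO factors and fasting were split in direction. The list holds such factors themselves, as foxo3a and foxo1a, beside their targets, which in mammals include PDK4. Of 31 listed genes 28 were matched and 25 tested, 13 above 0 and 12 below with a median of 0.02, and 0 called by limma. An unadjusted p under 0.05 was found for 2 higher and 1 lower, where 4.18% and 3.03% of all genes did so. The 28 genes summed to 956.2 to 1050.2 with Galloflavin, against 873.9 to 884.1 with DMSO, which did not overlap. The transcription factor gene foxo3a was at 3.59, 3.25 and 3.04 with Galloflavin, against 6.21, 5.11 and 5.57 with DMSO (-0.63 ± 0.13; limma adjusted p = 0.602). Its relative foxo1a was at 61.0, 73.4 and 56.6, against 49.4, 54.8 and 49.3 (0.30 ± 0.12; 0.677). The insulin receptor substrate gene irs2a was at 7.75, 22.4 and 8.14, against 7.46, 2.54 and 5.46 (1.09 ± 0.45; 0.690). Among the 25 genes tested the groups did not overlap for 2 higher and 1 lower, where 13.4% of all genes did not overlap. They were the 3 genes named here for their lowest unadjusted p.

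Downstream of the complex, 22 of 23 listed TCA cycle genes were tested, 16 above 0 and 6 below with a median log2 fold change of 0.06 and 0 called or at an unadjusted p under 0.05. The groups did not overlap for 7 of them, 5 higher and 2 lower, against 13.4% of all genes. The succinate dehydrogenase gene sdhb was at 104.9, 102.3 and 94.4 with Galloflavin, against 89.1, 92.5 and 90.1 with DMSO (0.15 ± 0.08; limma adjusted p = 0.737). The oxoglutarate dehydrogenase gene ogdhb, of a complex built like that of pyruvate dehydrogenase, was at 35.0, 29.1 and 30.7, against 35.7, 40.4 and 36.6 (-0.25 ± 0.11; 0.690). Its paralog ogdha was at 200.8, 202.3 and 180.8, against 201.0, 191.7 and 180.6, the last named after its values were seen. The malate dehydrogenase gene mdh1ab stood at -0.26 ± 0.15 (limma adjusted p = 0.754). It encodes a cytosolic form, as do mdh1aa, idh1 and aco1, which the list also counts.

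Among other enzymes that make or use pyruvate, 15 of 19 listed genes were matched to 14 identifiers and 12 tested, 7 above 0 and 5 below, with 0 called or at an unadjusted p under 0.05. The alanine aminotransferase gene gpt2, whose enzyme interconverts pyruvate and alanine, was at 68.0, 48.2 and 49.0 with Galloflavin, against 84.1, 97.4 and 56.1 with DMSO, lower in 3 of 3 batches (-0.50 ± 0.22; limma adjusted p = 0.690). The sulfurtransferase gene mpst stood at 0.23 ± 0.13 and the pyruvate kinase gene pklr at 0.49 ± 0.31 (limma adjusted p = 0.745 and 0.761). Pyruvate carboxylase offers pyruvate a second way into the cycle, and its gene pcxa, named after its values were seen, was at 198.1, 202.3 and 254.2 with Galloflavin, against 215.0, 197.0 and 259.9 with DMSO.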

How the data were processed

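The deposited signal is a normalised count per gene for 6 libraries, 1 column each, per the file headers. Reads were aligned with STAR 2.7.10a to GRCz11, per the submitters' processing notes; counter, annotation and normalization: not given in the sources used here. Libraries came from a stranded kit, per the labels' protocols, but whether counting used strand is not stated; overlapping genes and near-identical paralogs are uncertain. With the value of 1 read in each library, 100% of values came out as whole reads (tolerance 0.01). No library was a copy of another: chi-square divided by its degrees of freedom was at least 12.3 for every pair (genes with 20 or more reads).

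The main test was limma 3.58.1 (R 4.3.3) on log2(value + 1), two-sided with a variance trend, and Benjamini-Hochberg adjustment over the 15806 genes with a mean of at least 1, called at 0.05. All 10 genes passed that filter. Batches were compared with a moderated F test with the group in the fit. The labels give the batch, so batch pairs the libraries. Deviations from group means correlated at 0.10 (B1), 0.08 (B2) and 0.49 (B3) within batches. Between batches they correlated at -0.39 to 0.38. The values were 0.38 for Galloflavin B1 with DMSO B2 and 0.24 for Galloflavin B2 with DMSO B1. For B1 and B2 the pairing thus rests on the labels and was not borne out by these correlations. Alternatives were a batch block, other pseudocounts, filters and scalings, left-out libraries and batches, and edgeR 4.0.16 and DESeq2 1.42.0 on the recovered reads. The limma, edgeR and DESeq2 tests without a block, and the batch F tests, were first run on simulated data with known changes. The fits with batch as a block were not. The simulation gave every gene the same dispersion, so it does not show how the tests behave at the spread of pdk2b. Floors of 3 reads cover counting error only.

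The 10 genes and the lists were chosen with earlier results of these data known. All 10 are named, and of each other list up to 3 genes with the lowest unadjusted p; others are said to be picked after their values were seen, apart from ldha and slc2a1a, fixed for the comparison with single libraries, and marker genes, which were named for the tissue check or for the libraries they set apart. The 3 nearest patterns were taken for each of the 2 genes with the largest SD. Symbols missing from the table were filled for 1425 of 2175 identifiers from a table of gene names, and list genes under an older symbol were matched through RefSeq synonyms (GRCz12tu).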

Additional observations from a re-analysis of the deposited data

How the results depend on the processing

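For Galloflavin against DMSO, 0 of the 10 genes passed under any of the alternatives run. Over all genes DESeq2 called 83 (149 with batch as a block), 1 was called without B2 (1 also with the block) and 2 without B1 with the block, and 0 under the other alternatives, the replicate block in limma included. Batch as a block changed no call among the 10. Leaving out a batch with the block was added after the data were seen, as were left-out libraries in the batch test and list sums without their most abundant genes. Directions turned for 5 of the 10 genes. For mpc1 the log2 fold change was -0.056 with equal totals, -0.024 without B3 with or without the block, and -0.0053 (without DMSO B3) to 0.039 with single libraries left out. For pdha1a it was -0.059 with equal totals and -0.017 (without DMSO B3) to 0.047 with single libraries left out, and for dlat -0.017 with equal totals. For pdk3b it ran from -0.024 without DMSO B3 to 0.45, and for pdp1 from -0.36 to 0.0040 without Galloflavin B3. Equal totals moved the median of all genes by -0.07. For pdk2b single left-out libraries gave 0.62 (without Galloflavin B1) to 1.32 (without Galloflavin B2), for pdk4 0.12 to 0.57, for pdk1 -0.34 to -0.0036 and for pdk2a 0.019 to 0.21. A minimum mean of 5 left pdk4 out.

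Between batches 5 genes of the table passed, against 1 with a pseudocount of 5, median-of-ratios scaling or equal totals, 8 with no filter, and 0 with a minimum mean of 5 or edgeR. Single left-out libraries gave 0 (Galloflavin B2, DMSO B3 or Galloflavin B3) to 301 (DMSO B1), with 51 and 214 without DMSO B2 and Galloflavin B1. Among the 10 genes they gave 0 to 1, the 1 being pdk2b without DMSO B1 (limma adjusted p = 0.0360). The cause was not tested. At 38 to 256 reads, counting error alone gives pdk1, pdk2a, pdk3b, pdk4 and pdp1 coefficients of variation of 7.57% (pdp1) to 12.9% (pdk4). The observed ones were larger, at 13.2% (pdk2a) to 34.8% (pdk4), so counting error was not the only limit on precision.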

Other observations

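The branched-chain 2-oxoacid dehydrogenase and its relatives are built on the same plan as the pyruvate dehydrogenase complex. The branched-chain complex has a kinase and a phosphatase of its own. All 6 listed genes were tested, 3 above 0 and 3 below with a median log2 fold change of -0.02, and 0 called by limma. The groups did not overlap for 2 of the 6, both lower, as in 6.47% of all genes. The gene dhtkd1, for an oxoadipate dehydrogenase subunit, was at 42.3, 40.8 and 45.2 with Galloflavin, against 56.2, 55.2 and 48.5 with DMSO (-0.31 ± 0.10; limma adjusted p = 0.602). The acyltransferase gene dbt was at 39.1, 43.3 and 42.2, against 48.1, 49.4 and 44.5 (-0.18 ± 0.09; 0.711). The kinase gene bckdk, related to the Pdk family, was at 52.4, 50.0 and 49.2, against 46.2, 50.4 and 47.4 (0.07 ± 0.08; 0.890).

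Cell type markers beyond those given with a result had 0 genes called by limma in each list. Their median log2 fold changes were 0.20 for basal epidermis (9 tested), -0.10 for fibroblasts and blastema (16), -0.01 for osteoblasts (8), 0.07 for endothelium (8), -0.04 for erythrocytes (7) and -0.05 for fin position (5). Single libraries decided some of them: basal epidermis was at 0.029 without DMSO B1, fibroblasts and blastema between -0.21 without Galloflavin B2 and 0.051 without DMSO B3, and erythrocytes between -0.28 without DMSO B2 and 0.50 without DMSO B1. Osteoblasts ran from -0.078 to 0.024, endothelium from -0.046 to 0.088 and fin position from -0.080 to -0.0039. Erythrocyte markers summed to 51.0 to 108.5 with Galloflavin, against 43.7 to 142.2 with DMSO, the highest in DMSO B1. Among lists given with a result, also with 0 called, neutrophils had a median of 0.37, with 7 of 7 tested above 0. Superficial and intermediate epidermis had 0.14 (5 of 6 above 0) and macrophages -0.17 (3 of 10), where 49.1% of all genes lay above 0. With single libraries left out these 3 medians ran from 0.25 to 0.70, 0.15 to 0.23 and -0.41 to -0.067.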
